A study of Mus musculus with 2 samples.

Results

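Venous endothelial cells of the mouse lung are described here from single-cell counts of sorted endothelial lineage cells. Members were chosen by measured counts. A barcode was a member when it held at least 3 UMIs (unique molecular identifiers, each standing for 1 captured transcript) of Slc6a2, Mmp16, Kirrel3 and Car8 together, and when these made at least 60% of its UMIs from the marker genes of 5 endothelial classes. Barcodes with fewer than 500 genes or more than 15% mitochondrial UMIs were left out. So were barcodes with more UMIs of the large artery genes Cytl1, Sfrp1 and Gpc6 than of the 4 venous genes, with 2 or more UMIs of the tip genes Esm1 and Gzmk, or with 3 or more of the proliferation genes Mki67 and Top2a. This gave 1469 members among 26436 barcodes. In the library labelled aWT there were 926 of 15651, which is 5.92% (95% exact Clopper-Pearson interval 5.55 to 6.30%). The library labelled aKO held 543 of 10785, which is 5.04% (4.63 to 5.46%). Among members with no UMI of the general capillary rule genes the order turned, to 1.22% in aWT and 2.00% in aKO. These shares follow the levels of the rule genes. Slc6a2 and the capillary rule genes Glp1r, Sema3c and Adgrl3 were lower in aKO members, while Aplnr was not. Depth differed as well, so the shares do not measure how common the cells were.

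Lung veins carry oxygenated blood from the alveolar capillaries to the left atrium, and larger bronchial and systemic veins drain the airways. Their endothelium is known for the transcription factor COUP-TFII (Nr2f2), the receptor EphB4, von Willebrand factor and P-selectin, and venules are the classical site of leukocyte adhesion. In endothelial cells BMP9 and BMP10 bind a receptor complex of ALK1 (Acvrl1), BMPR2 and the co-receptor endoglin, which phosphorylates SMAD1 and SMAD5. The Id genes and the inhibitory SMAD genes Smad6 and Smad7 are among the direct targets of that pathway.

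The cells came from C57BL/6J mice of 10 to 12 weeks that carried VE-cadherin-cre, a recombinase driven by the endothelial cadherin promoter, and a tdTomato reporter, and red cells were sorted from whole dissociated lung. The series is titled as a model of hereditary hemorrhagic telangiectasia 2, the form of that vascular disorder caused by ACVRL1 mutations. The labels give the groups as aWT and aKO and name no deleted gene, exon, inducer or number of animals. Each group was 1 library, so no difference between the groups could be tested, and every interval covers counting error only.

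The libraries also differed in sex-linked transcripts. Among the members, Xist stood at 4.57 CPM in aWT members and 758.8 CPM in aKO, and Ddx3y at 106 CPM in aWT members and 0 in aKO (CPM is a gene's summed UMIs per 1000000 UMIs of the same cells). Where a pair of levels follows a gene with no library named, the first is that of aWT and the second that of aKO. Group and sex of the animals therefore cannot be told apart. The matrices held 72270260 UMIs over 15996 barcodes for aWT and 75950364 UMIs over 11045 barcodes for aKO. Members had a median of 5702 UMIs in aWT (654 to 59819) and 10096 in aKO (659 to 35135). Of 48 barcode sequences found in both libraries, 5 belonged to members, and none was a member in both. Scrublet called 7 aWT members and 0 aKO members as doublets.

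Since these genes selected the members, their levels are a description. The median member held 23 UMIs of the 4 genes in aWT and 21 in aKO. At the edge of the rule, 20 aWT and 17 aKO members had exactly 3 such UMIs, and 9 barcodes in each library fell outside with 2. A venous share of 60 to 70% was found in 253 aWT and 181 aKO members, and a further 210 and 134 barcodes lay just outside at 50 to 60%.

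The label was checked against its markers. Bst1, an ectoenzyme also known as CD157, and Vwf, the platelet-binding factor stored in endothelial granules, were not used by the rule. Bst1 stood at 186 CPM (175 to 197) in aWT and 233 CPM (221 to 246) in aKO members, and at most at 27.1 CPM in any other class of either library. Vwf stood at 3634 CPM in aWT members and 2439 CPM in aKO members, against 2462 CPM and 513 CPM in arterial barcodes and at most 299.5 CPM in general capillary, aerocyte and lymphatic barcodes. Nr2f2 was at 490 CPM in aWT members and 617 CPM in aKO members. It was at most 45.8 CPM in the blood endothelial classes and reached 1199.5 and 1387 CPM in lymphatic barcodes. Ephb4 set the members apart less. In aWT they held 296 CPM, against 215 CPM for general capillary barcodes. In aKO they held 287 CPM, against 225 CPM for lymphatic barcodes. Lyve1, a gene of the lymphatic list, was higher in the members (1658 and 1928 CPM) than in lymphatic barcodes (854 and 1357 CPM). It was higher still in arterial barcodes (2029 and 2700 CPM). The members thus carried more Bst1, Vwf and Nr2f2 than the other blood endothelial classes of their library, with the exception described next.

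A small group of members went against the label. In 31 aWT and 4 aKO members, genes of a lung epithelial list (surfactant proteins, the club cell protein Scgb1a1 and others) made at least 1% of the UMIs. The limit was set after the data had been seen. The share ran from 1.06 to 53.7% in these aWT members, against at most 0.845% in the other 895, and from 8.57 to 23.2% in the aKO members, against at most 0.0934% in the other 539. Car8, a carbonic anhydrase-related protein, made 78.1% of their venous UMIs in aWT and 100% in aKO, and 17.2% and 28.1% of those of the other members. Summed over the 4 aKO barcodes, Slc6a2, Vwf and Cdh5 were at 0 CPM. In the 31 aWT barcodes Cdh5, which encodes VE-cadherin, was at 70.4 CPM, against 975 CPM in the other members. These 35 barcodes are called epithelial-type members below. All values cover all members unless the text says that these were left out, which gave 1434 members.

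Markers of other cell types were counted over all members. None of the 14 leukocyte genes and none of the 9 platelet and red cell genes reached 5 CPM in either library. Of 12 mural genes 3 did: Acta2 at 2.11 CPM in aWT members and 11.3 CPM in aKO, Tagln at 5.80 and 45.8 CPM, and Rgs5 at 17.9 and 5.08 CPM, while Pdgfrb stayed under 1 CPM. Of 11 fibroblast genes 8 did, with Gsn at 178 and 12.1 CPM, Mfap5 at 33.5 and 78.1 CPM, Dcn at 24.6 and 7.38 CPM and Clec3b at 23.5 and 2.95 CPM, while Pdgfra stood at 0.176 and 0 CPM. Of 10 cardiomyocyte genes 1 did, Myl4 at 18.1 and 26.7 CPM, and Tnnt2 was at 0 in both. The summed level of the 15 general capillary identity genes was 8960 CPM in aWT members and 6290 CPM in aKO members. No UMI of the 4 general capillary genes of the class rule was found in 191 aWT and 216 aKO members. Sftpc, a surfactant gene, was still at 108 CPM in aWT members and 6.11 CPM in aKO once the epithelial-type members were left out. It was also at 397 to 1048 CPM in the other 4 classes of aWT, and at 5.57 to 79.6 CPM in those of aKO.

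**Figure D1:**
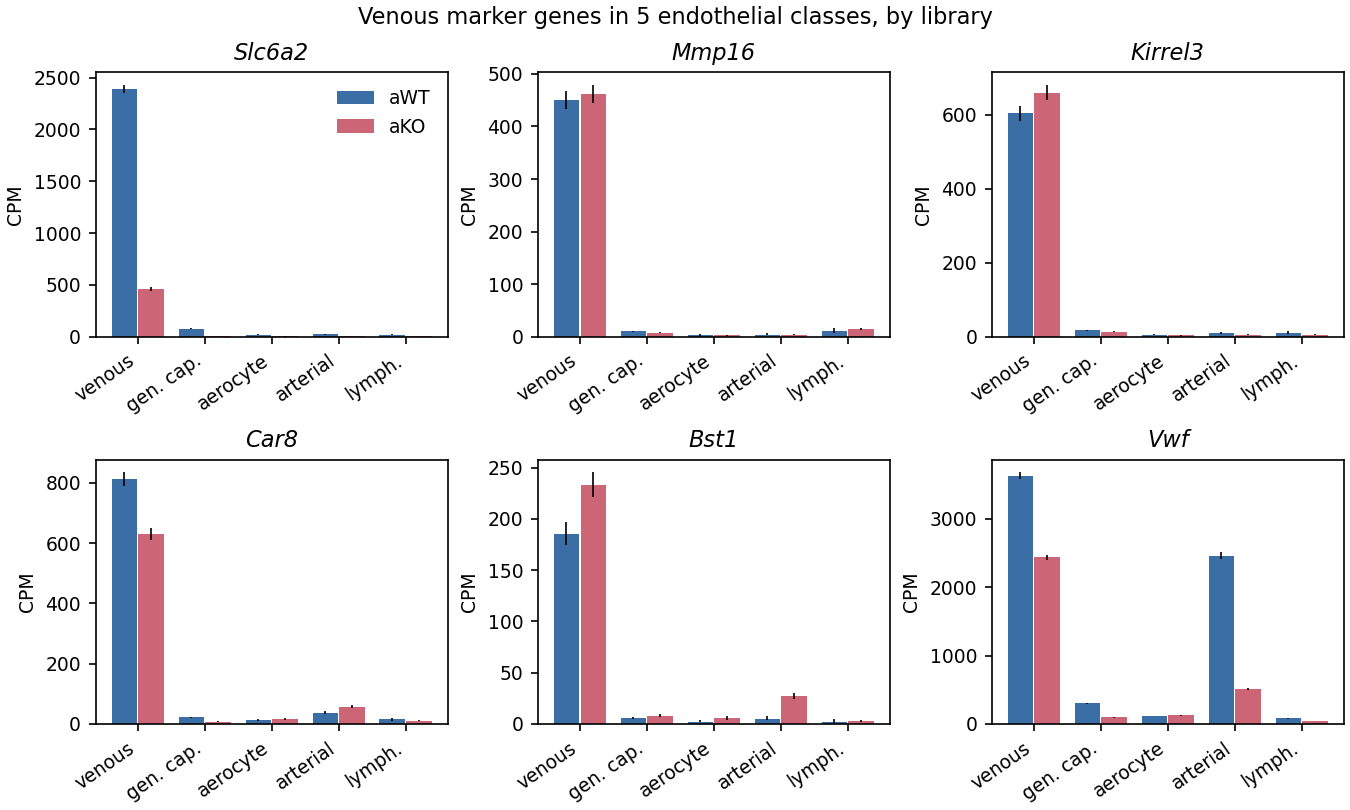
Summed level (CPM, vertical axis) of the 6 marker genes in 5 endothelial classes of the aWT (blue) and aKO (red) libraries; error bars are exact Poisson 95% intervals, for counting error only, and are often smaller than the line. Each of the first 5 genes stands highest in the venous class of both libraries, Slc6a2 is at 2389.9 CPM in aWT members and 459.8 CPM in aKO members, and Vwf is also high in arterial barcodes of aWT.

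The members were next set beside barcodes cut in the same way for general capillary, aerocyte, arterial and lymphatic genes. Among 3580 genes with at least 50 CPM in the members of both libraries, 53 (1.48%) were at least 2-fold higher than in each other class in both libraries. The classes were cut from the same counts, so this is a description. Of these, 4 were genes of the rule, and 27 of the 53 were past 4-fold. Sftpc, Sftpa1, Sftpb, Lyz2 and Spint2 were on this list through the epithelial-type members and fell out without them.

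The other leading genes fell into a few kinds. Gria3, a glutamate receptor subunit, stood at 111 CPM in aWT members and 115.5 CPM in aKO members, and at most at 6.88 CPM in any other class. Lhx6, a LIM-homeobox transcription factor, stood at 67.3 and 119.9 CPM, against at most 5.99 CPM. Tmem45a, at 154 and 157 CPM, and Cryab, a small heat shock protein, at 199.7 and 373 CPM, were likewise low elsewhere, with at most 14.7 and 20.2 CPM in another class. Gm32647, at 80.8 and 57.1 CPM, reached at most 1.5 CPM elsewhere.

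Of the 53 genes, 4 with a known part in membrane lipid or prostanoid synthesis are given for their values, without a test of that theme. Ptgs2 encodes cyclooxygenase 2, which makes the prostaglandin precursor. It stood at 100.1 CPM (92.1 to 109) in aWT and 129 CPM (119.9 to 138) in aKO members, and at most at 11.2 CPM in any other class. Ptgis, the prostacyclin synthase, stood at 159 CPM in aWT members and 354 CPM in aKO members, and at most at 44.2 CPM elsewhere. Lpcat2, an acyltransferase of platelet-activating factor synthesis, was at 124 and 97.6 CPM, against at most 9.24 CPM. Pla2g4a, the cytosolic phospholipase that frees arachidonate and was singled out after its values were seen, was at 183 and 175.5 CPM, against at most 35.5 CPM.

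Among the 49 genes outside the rule, 4 were at least 2-fold higher in aKO than in aWT members: Ptgis, Rflnb, Serpinb6b and Ch25h. Apart from the epithelial genes, Dnm3 was among those at least 2-fold lower. Of these, all but Ptgis were named after their values were seen. Ch25h, which makes 25-hydroxycholesterol, stood at 88.5 CPM in aWT members and 254 CPM in aKO members. Dnm3, a dynamin, stood at 756.5 and 362 CPM.

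Between the libraries, 186 of 4477 genes with at least 50 CPM in 1 library (4.15%) were at least 2-fold higher in aKO members and 170 (3.8%) at least 2-fold lower. Ratios are log2 of CPM + 5, aKO over aWT, which understates the change of low genes. The median log2 ratio over these genes was 0.06. Without the epithelial-type members 178 of 4468 genes were higher and 164 lower. The 12 genes with the lowest ratios over all members, from Scgb1a1 (5758 CPM in aWT, 14.6 CPM in aKO, log2 ratio -8.20) to Gsn (178 and 12.1 CPM, -3.42), lay at no more than 108 CPM in aWT once the epithelial-type members were left out, with Scgb1a1 at 54.3 CPM and Gsn at 9.41 CPM. The lowest genes are therefore given without those members.

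Genes higher in aKO were led by Ifi27l2b, a small interferon-inducible gene. It stood at 2.11 CPM (1.09 to 3.68) in aWT and 212.5 CPM (201 to 224) in aKO members, a log2 ratio of 4.94. The second was Col8a1, a short-chain collagen of vessel walls, with 2 UMIs in all aWT members and 493 in aKO members, at 80.8 CPM (73.9 to 88.3).

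Further genes had log2 ratios from 2.85 to 3.49. Cda, a cytidine deaminase, stood at 0.351 and 54.9 CPM, and Masp1, a protease of the lectin pathway of complement, at 3.16 and 84.5 CPM. Arsj, an arylsulfatase, stood at 21.96 and 290.1 CPM. Ifi27l2a, a relative of Ifi27l2b, stood at 53.6 and 604 CPM (3.38). Ltc4s, the leukotriene C4 synthase, stood at 3.51 and 71.2 CPM. Emilin1, a glycoprotein of elastic fibres, and Lgals1, galectin-1, stood at 14.8 and 10.0 CPM in aWT members, and at 153 and 110.5 CPM in aKO members. D5Ertd615e (3.16 and 58.2 CPM) and Fxyd6 (4.92 and 66.2 CPM) were also among them.

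Genes lower in aKO, without the epithelial-type members and after Sftpc, were led by Id1. It stood at 1349 CPM in aWT members and 150.5 CPM in aKO, a log2 ratio of -3.12. Ncald, a neuronal calcium sensor, stood at 314 and 38.8 CPM (-2.86), and the adhesion molecule Cadm1 at 279 and 35.5 CPM (-2.81). Cyp1a1, a monooxygenase induced through the aryl hydrocarbon receptor, stood at 155.5 and 21.6 CPM (-2.59). Npr3, the clearance receptor of natriuretic peptides, stood at 167 and 24.9 CPM (-2.52). Id3, Cd74, Fmo2, Adamts17, Cmss1 and H2-Ab1 followed, with log2 ratios from -2.54 to -2.38.

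**Figure D2:**
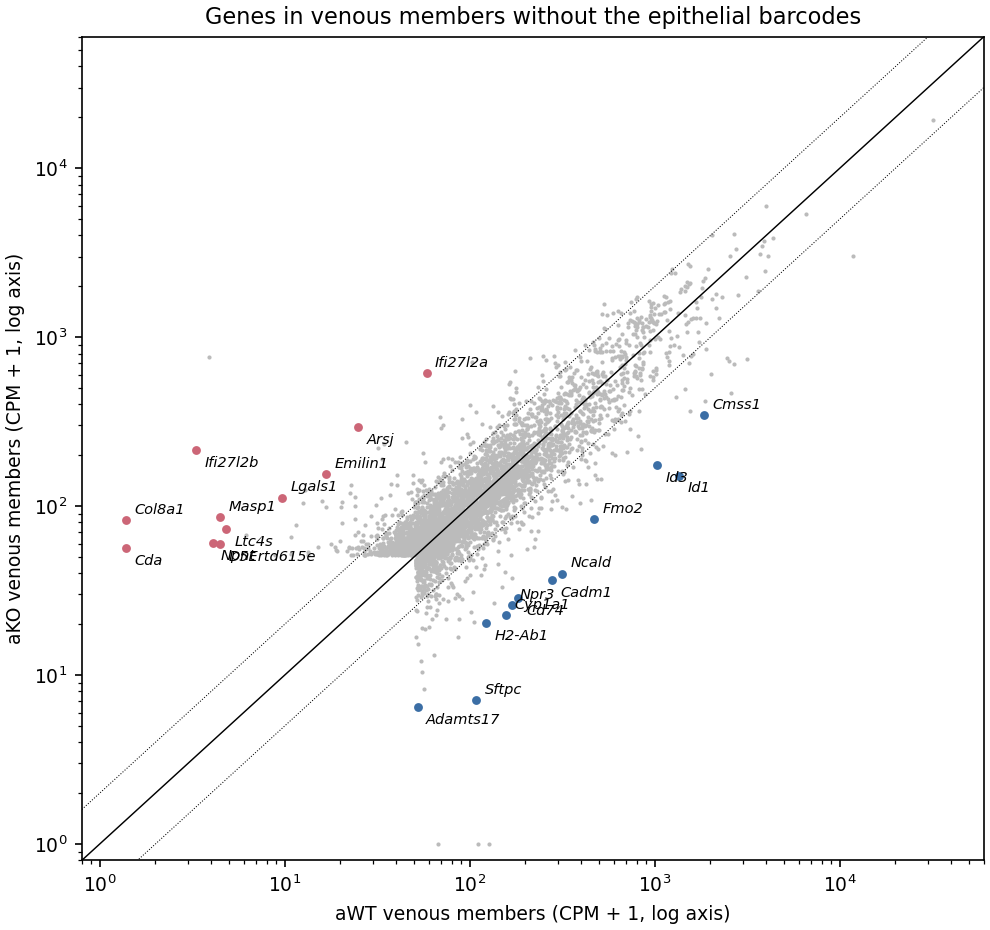
Level of each gene with at least 50 CPM in 1 library (grey points) in aWT (horizontal axis) and aKO venous members (vertical axis), both as CPM + 1 on log axes and without the epithelial-type members; the solid line marks equal levels and the dotted lines 2-fold. Genes with the highest (red) and lowest (blue) log2 ratios are named; the unnamed grey points at the lower edge and far upper left are sex-linked genes, among them Ddx3y at 0 and Xist at 758.8 CPM over all aKO members.

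Of the 4 rule genes, Slc6a2 differed most between the libraries. It encodes the noradrenaline transporter, by which lung endothelium takes up noradrenaline from the blood, and lies on chromosome 8 from 92960079 to 93001667 (plus strand, mm10). It stood at 2389.9 CPM (2349.9 to 2430.4) in aWT and 459.8 CPM (443 to 477) in aKO members, a log2 ratio of -2.37. The log2 ratios of Mmp16, Kirrel3 and Car8 were 0.04, 0.13 and -0.36. All 4 genes selected the members, so their ratios and the shares of members with a UMI are a description. After every member was thinned to 2000 UMIs, 90.8% of aWT (88.7 to 92.7%) and 46.7% of aKO members (42.4 to 51.0%) held a Slc6a2 UMI. The same share was 6.43% and 1.05% in general capillary barcodes. Before thinning the members stood at 92.3% and 70.2%, and thinning left out 78 aWT and 12 aKO members. Slc6a2 had log2 ratios from -2.47 to -1.71 in the other 4 classes, where its level was at most 76.6 CPM.

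Further genes that clear or make vasoactive substances differed in both directions. Lists were counted over genes with at least 5 CPM in 1 library, at a 1.5-fold ratio. Over all 11007 such genes, 12.1% were higher and 9.76% lower in aKO members, with a median log2 ratio of 0.05. Of 15 measured genes for amine, nucleotide, peptide and prostanoid handling, 7 were lower, 2 were higher and 6 lay within 1.5-fold (median -0.12). Hpgd, which breaks down prostaglandins, stood at 2893 CPM (2849 to 2937) in aWT and 738 CPM (716 to 759.5) in aKO members. Slco2a1, the transporter that carries prostaglandins into the cell, stood at 645 and 318 CPM. Ace, the angiotensin-converting enzyme, stood at 366 and 187 CPM, while Ptgis was higher as given above. Maoa, which degrades amines, had a log2 ratio of 0.29.

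Among 10 measured vasomotor genes 5 were higher and 2 lower in aKO. Nos3, the endothelial nitric oxide synthase, stood at 145.5 and 298 CPM. Edn1, the endothelin-1 gene, stood at 117 CPM (109 to 126) in aWT and 209 CPM (197 to 220.4) in aKO members. In general capillary barcodes the log2 ratio of Edn1 was -3.51. The lower genes were Npr3 and Calcrl, the receptor for adrenomedullin (3343 and 1849.5 CPM), while its partner Ramp2 was higher (1426 and 2612 CPM).

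Of 24 other venous identity genes, 7 were higher, 5 lower and 12 within 1.5-fold in aKO (median log2 ratio 0.33). Vcam1, an adhesion receptor for leukocytes, stood at 262 CPM (249 to 276) in aWT and 766 CPM (744 to 788.5) in aKO members. Lrg1, a secreted glycoprotein that modifies TGF-beta signalling, stood at 245 and 543 CPM. Flrt2, a receptor of guidance signals, stood at 11.9 and 49.8 CPM. Nr2f2 and Ephb4 had log2 ratios of 0.33 and -0.04.

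The BMP9 and ALK1 response list was next in order. Of its 16 measured members, 11 were lower, 1 was higher and 4 lay within 1.5-fold in aKO, with a median log2 ratio of -0.90. Id1, Id2 and Id3 block basic helix-loop-helix factors. Id1 (chromosome 2, 152736251 to 152737410) stood at 1243 CPM (1214 to 1272) in aWT and 149.7 CPM (140.2 to 159.8) in aKO members. Id3 stood at 953 CPM (928 to 979) and 171.5 CPM (161 to 182), and Id2 at 183 CPM (172 to 195) and 74.8 CPM (68.1 to 82.0). Smad6, which blocks SMAD1 and SMAD5, stood at 332 and 169 CPM, and Smad7 at 442 and 151 CPM.

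Other targets were lower too. Tmem100, a membrane protein gene induced through ALK1, stood at 658 CPM (637 to 679) in aWT and 208 CPM (196 to 219) in aKO members, a log2 ratio of -1.64. Its ratios were -0.20 in general capillary, -0.69 in aerocyte, -0.25 in arterial and -0.89 in lymphatic barcodes. Hey1, Hes1, Tspan18 and Atoh8 were also lower. Ackr3, a scavenger receptor of CXCL12 and among the 53 venous genes, was the member that was higher, at 1031 CPM (1004 to 1057) in aWT and 1739.6 CPM (1707 to 1773) in aKO. The general capillary identity list was lower beside it. Of its 15 genes 7 were lower and 1 was higher (median -0.42), and its part in the result was not tested. In the members with no UMI of the 4 general capillary rule genes, the medians of the response list and the capillary list were -0.61 and -0.21, and the log2 ratio of Id1 was -2.91.

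The start-site regions of the Id and SMAD genes that were lower together are shown for their sequence. They come from RefSeq (GRCm38.p6), which held 3 of the 5 genes looked up (Id2, Id3 and Smad6, without Id1 and Slc6a2). They run from 250 bases before the start to 20 bases after it, 5′ to 3′ on the gene's strand. Capitals mark GGCGCC, a GC-rich element bound by SMAD1 and SMAD5, and GTCTAGAC, a palindrome of SMAD boxes. Both motifs read alike on both strands and do not overlap.
Id2, chr12:25096073-25096342, minus strand: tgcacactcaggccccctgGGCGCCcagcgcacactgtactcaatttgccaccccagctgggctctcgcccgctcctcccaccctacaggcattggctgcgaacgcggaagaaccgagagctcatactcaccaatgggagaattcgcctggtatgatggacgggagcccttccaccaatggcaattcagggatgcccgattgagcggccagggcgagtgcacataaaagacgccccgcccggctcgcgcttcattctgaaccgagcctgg
Smad6, chr9:64022040-64022309, minus strand: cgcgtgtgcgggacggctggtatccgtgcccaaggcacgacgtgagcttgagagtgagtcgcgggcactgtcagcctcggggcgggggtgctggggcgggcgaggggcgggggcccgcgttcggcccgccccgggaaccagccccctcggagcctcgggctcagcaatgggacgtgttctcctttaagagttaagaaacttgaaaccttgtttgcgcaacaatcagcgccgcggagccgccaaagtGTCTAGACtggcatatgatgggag
Id3, chr4:136143572-136143841, plus strand: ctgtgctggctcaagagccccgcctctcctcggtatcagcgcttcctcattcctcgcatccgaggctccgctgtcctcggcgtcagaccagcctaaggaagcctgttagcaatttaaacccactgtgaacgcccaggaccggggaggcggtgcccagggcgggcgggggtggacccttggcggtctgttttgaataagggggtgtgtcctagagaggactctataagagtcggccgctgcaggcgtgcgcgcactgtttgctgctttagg
In windows of 300 bases, GGCGCC occurred in 11.9% and GTCTAGAC in 0.213% of 32851 mouse promoters. The window of Id2 held 1 GGCGCC, that of Smad6 held 1 GTCTAGAC, and that of Id3 held neither. The SMAD element CAGACA, on either strand, occurred in 21.0% of promoters and in none of these 3. A match is a description of letters, not of binding.

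Receptors were counted next. Acvrl1, which encodes ALK1, stood at 551 CPM (532 to 570.4) in aWT and 486 CPM (468 to 504) in aKO members, a log2 ratio of -0.18. Reads of a 3′ assay can lie outside a deletion, so this value is no check of the labels. Eng, endoglin, stood at 764 and 609 CPM (-0.32), and Bmpr2 at 1415 and 697 CPM (-1.02). The ratios of Acvrl1 in the other classes ran from -0.84 to -0.50, and those of Eng from -1.59 to -0.04. Among 15 measured receptor and SMAD genes 4 were lower. Smad1 alone was higher, at 67.8 and 188 CPM.

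Of 13 measured BMP and TGF-beta ligands, antagonists and binding proteins, 5 were higher and 3 lower. Bmp4, a BMP ligand, stood at 66.8 CPM (60.2 to 73.8) in aWT and 332 CPM (318 to 347) in aKO members, a log2 ratio of 2.23. Tgfb1 stood at 69.0 and 127 CPM, and Ltbp1, which anchors latent TGF-beta in the matrix, at 317 and 575 CPM. Bambi, a decoy receptor induced by BMP, was lower at 76.2 and 48.0 CPM.

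Matrix genes were mostly higher in aKO members. Of 20 measured genes of the elastic fibre and interstitial matrix list, 12 were higher and 1 was lower (median log2 ratio 0.80). Eln, elastin, stood at 605 CPM (585 to 625) in aWT and 1371 CPM (1342 to 1400.5) in aKO members, a log2 ratio of 1.17. In general capillary, aerocyte, arterial and lymphatic barcodes the Eln ratios were -0.49, 0.84, -0.30 and 0.40. Emilin1, whose level in the members is given above, had ratios from 0.10 to 1.13 in those classes. Fn1, fibronectin, stood at 50.9 and 205 CPM, and Ccn2, a matrix-associated growth factor, at 265 and 692 CPM. Lox, the enzyme that cross-links elastin, stood at 6.32 and 16.1 CPM. The only lower gene, Dcn, had a log2 ratio of -1.26, and of 0.56 without the epithelial-type members.

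Among collagens, laminins and other basement membrane genes, 11 of 23 were higher and 4 lower, and 12 of 20 were higher and 2 lower without the epithelial-type members (medians 0.20 and 0.74). In this list the largest ratios after that of Col8a1 were those of Sparc, a collagen-binding glycoprotein (120 and 709 CPM), Lamb1, a laminin chain (2.81 and 30.8 CPM), and Col3a1 (48.3 and 188 CPM). Sparc had log2 ratios of -0.46 to 1.17 in the other classes, against 2.52 in the members. Of 14 genes of mesenchymal transition 6 were higher and 3 lower. Vim, vimentin, stood at 1123 and 2378 CPM, while Snai1, Snai2 and Zeb1 lay within 1.5-fold. Of the mural markers, Acta2 and Tagln were higher in aKO and Rgs5 was lower, as given above. Without the epithelial-type members 3 of 6 measured fibroblast genes were higher and none lower (median 0.88), with Mfap5 and Lum at log2 ratios of 1.24 and 1.20. Their part in the result was not tested.

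Adhesion and clotting genes were more often higher than lower. Among 17 measured adhesion genes 5 were higher and 1 was lower (median 0.33). Cd34 stood at 94.7 CPM (86.9 to 103) in aWT and 393 CPM (377 to 409) in aKO members, and Emcn, the sialomucin of veins and capillaries, at 507 and 1343 CPM. Sele stood at 29.9 and 54.1 CPM, and Selp, Icam1 and Icam2 lay within 1.5-fold. Among 18 coagulation and fibrinolysis genes 8 were higher and 1, the plasminogen activator Plat, was lower (29.2 and 12.96 CPM). Without the epithelial-type members 8 were higher and 3 lower: Plat, Vwf and Thbd (log2 ratios of -0.99, -0.68 and -0.63). Procr, the protein C receptor, stood at 33.7 and 134 CPM. Anxa2 and S100a10, which bind plasminogen together, stood at 501 and 512 CPM in aWT members and 1357.5 and 1566 CPM in aKO members.

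Transcripts of MHC class II genes, which serve antigen presentation, were lower in aKO. All 6 measured genes of the list were lower, with a median log2 ratio of -1.75. Without the epithelial-type members, Cd74, the invariant chain, stood at 181 and 27.4 CPM, and H2-Ab1 at 121.5 and 19.3 CPM. Of 25 interferon response genes only Ifi27l2a and Ifi27l2b were higher and 4 were lower (Ifit3, Ifi44, Irf1 and Iigp1). Isg15, at 66.0 and 66.2 CPM, and Ifitm3, at 1632 and 1713 CPM, lay within 1.5-fold. Ifi27l2b had log2 ratios of 4.94 in the members, 5.67 in arterial barcodes and 0.84 to 1.75 in the other classes.

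Genes that dissociation can induce were lower in aKO members. This held for 9 of 17 immediate early genes (median -0.63), such as Atf3 at 724 and 364 CPM. It also held for 8 of 12 heat shock genes (median -0.77), such as Hspa1a at 2532 and 695 CPM. None of either list was higher. Nuclear genes of the respiratory chain were higher for 12 of 23, with none lower (median 0.61), while 1 of 13 mitochondrial genes was lower and none higher. Glycolysis and hypoxia genes were higher for 10 of 18 and lower for 3. Gapdh stood at 111 and 356.5 CPM, and Vegfa at 47.6 and 17.9 CPM.

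**Figure D3:**
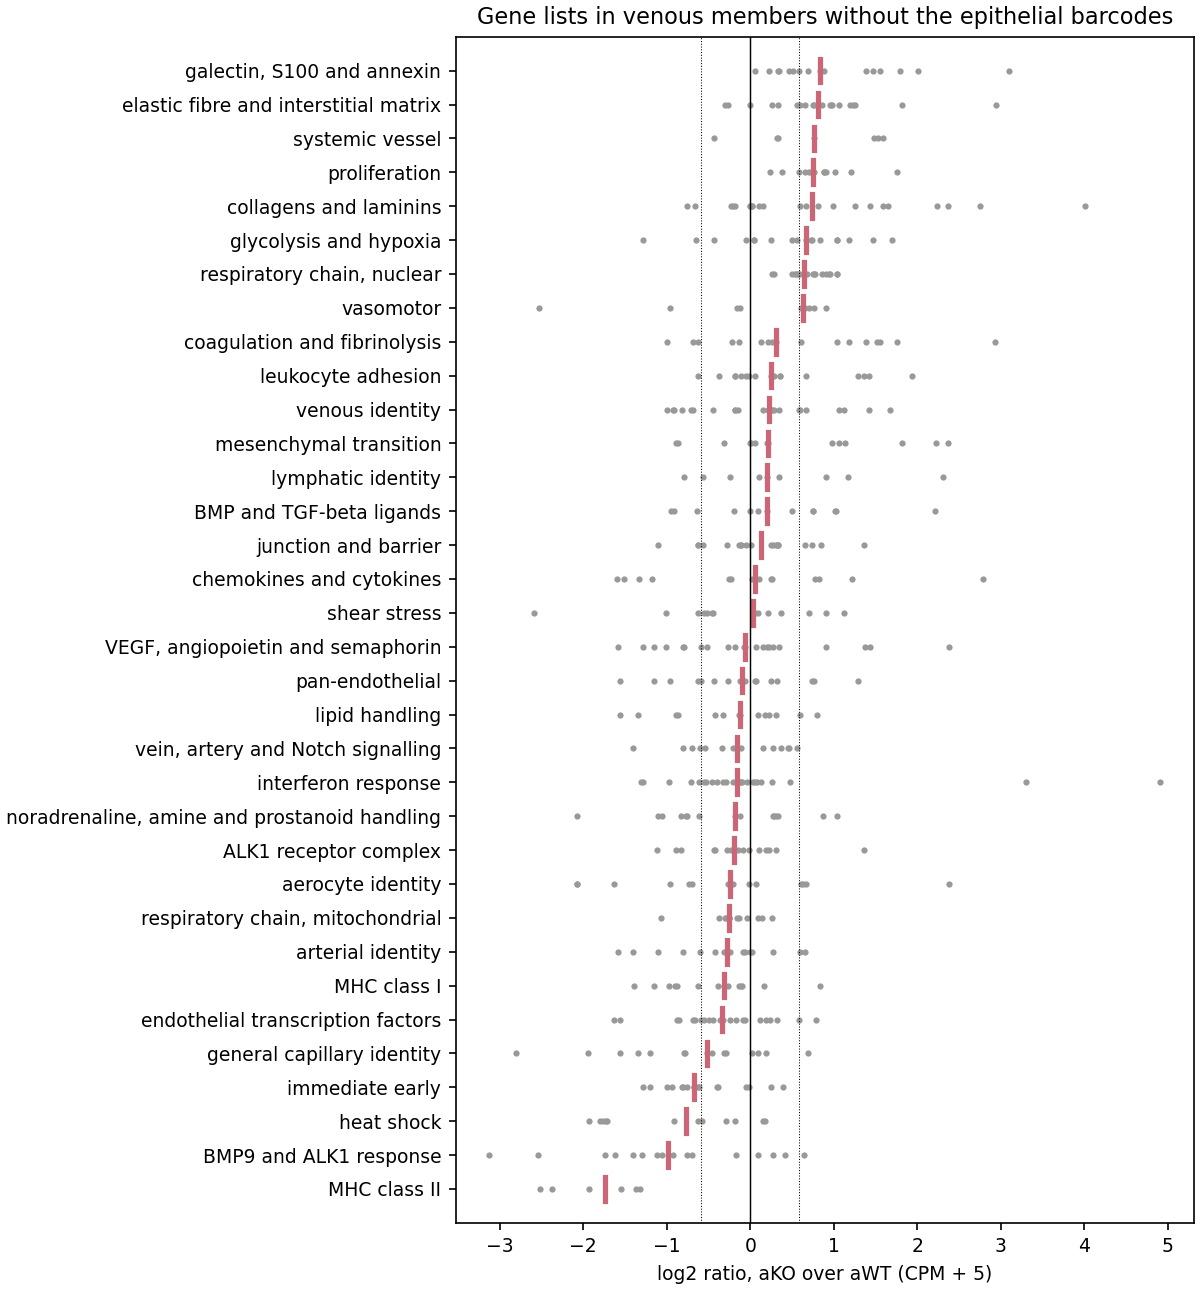
Log2 ratio (aKO over aWT, CPM + 5, horizontal axis) of each measured gene (grey points) and the median (red bars) of lists with at least 5 measured genes, apart from the rule genes, sex-linked genes and markers of cells other than endothelium, in members without the epithelial-type members; dotted lines mark 1.5-fold. The plotted medians run from -1.74 for MHC class II and -0.99 for the BMP9 and ALK1 response to 0.81 for elastic fibre and interstitial matrix and 0.84 for galectin, S100 and annexin genes.

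The members were then clustered within each library, without the epithelial-type members, to describe how they vary. The clusters were made from these same counts (2000 variable genes), so the leading genes are a description. The resolution of 0.5 was chosen after the data had been seen, and clusters are called by a leading gene. In aWT there were 5: an Adgrl3-led cluster of 324 members, an Igfbp5-led one of 190, a Socs3-led one of 189, a Col3a1-led one of 170, and 22 members of low depth (median 1755 UMIs). In aKO there were 4: Npnt-led with 227, Col8a1-led with 191, Ccl2-led with 77 and Smad6-led with 44.

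The Col3a1-led cluster of aWT stood apart most among the deeper clusters. Against the other aWT members, 177 of 4257 genes (4.16%) were at least 2-fold higher in it, led by Col3a1, Fn1, Kcnt2 and Pkhd1l1. There Col3a1, a fibrillar collagen, was at 135 CPM (115 to 157) and at 0 in the others. The kinase gene Bmx (246 CPM), the matrix gene Smoc1 (96.0 CPM) and the leukocyte receptor Sele (117 CPM) were also high there. Slc6a2 was lower, at 1443 CPM against 3120 CPM in the Adgrl3-led cluster. The Adgrl3-led cluster was led by Rapgef4, Kank4, Ccdc85a, Chrm2 and Adgrl3, and Adgrl3 and Gpihbp1, which mark general capillary barcodes, stood at 393 and 356.5 CPM in it against 37.3 and 90.5 CPM in the Col3a1-led cluster. The Socs3-led cluster was led by Socs3, Gm26532, Ier3, Gm13889 and Jund, genes that include immediate early ones. Plxdc2, Cyp7b1, Gm5127, Igfbp5 and Col14a1 led the Igfbp5-led cluster.

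In aKO the Col8a1-led cluster held many of the same genes. There 145 of 4438 genes (3.27%) were at least 2-fold higher than in the other aKO members, led by Col8a1, Col3a1, Tmem158, Htra1 and Fxyd6. Among 3884 genes that could be counted in both libraries, 144 were higher in the aWT Col3a1-led cluster and 100 in the aKO Col8a1-led cluster, which is 2.57% of the genes. They shared 74, which is 51.4% of the first list and 74% of the second. Smoc1 stood at 131.5 CPM and Sele at 102.5 CPM in the Col8a1-led cluster. Col8a1 itself was at 189 CPM (173 to 207) in this aKO cluster and at 1.59 CPM (0.192 to 5.73, from 2 UMIs) in the Col3a1-led cluster of aWT. Eln was at 2058 and 887 CPM, and Bmp4 at 604 and 121 CPM in these clusters. Slc6a2 was at 138 CPM (124 to 153) in the Col8a1-led cluster and 1443 CPM in the Col3a1-led one. The median depth was 13141 UMIs in the Col8a1-led and 7003 in the Col3a1-led cluster.

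The Npnt-led cluster of aKO was led by Npnt, Prkcq, Edil3, Lama1 and Reep1. Npnt, the integrin ligand nephronectin, stood at 147 CPM (132 to 164) in it, at 1.16 CPM in the Col8a1-led cluster, and at no more than 5.89 CPM in any aWT cluster. Ltc4s was at 143.5 CPM in the Npnt-led, 106 CPM in the Ccl2-led and 12.0 CPM in the Col8a1-led cluster. Slc6a2 was at 629.9 CPM (597 to 664) in the Npnt-led cluster. The Ccl2-led cluster was led by the chemokine gene Ccl2 (199 CPM, 169 to 234), Apln, Cxcl12, Tubb6 and Igfbp7, and had the highest Vcam1 level of the clusters, 1403 CPM.

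**Figure D4:**
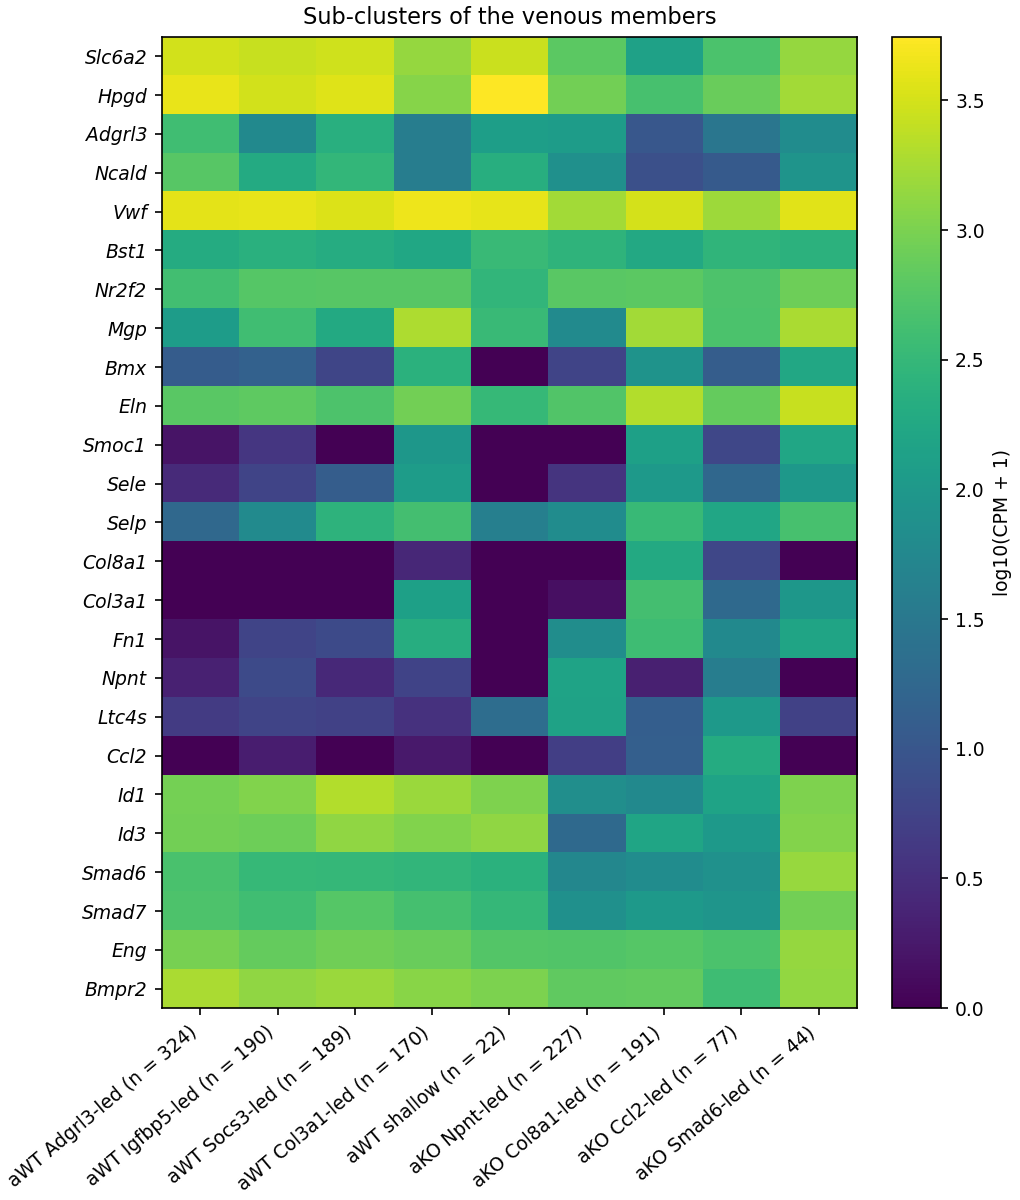
Summed level (colour, log10 of CPM + 1) of 25 genes (rows) in the 5 aWT and 4 aKO sub-clusters of the venous members (columns, n = members), without the epithelial-type members. Mgp, Smoc1 and Sele are high in the Col3a1-led aWT, Col8a1-led aKO and Smad6-led aKO columns, and Id1, Id3, Smad6 and Smad7 are low in every aKO column but the Smad6-led one.

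The 44 members of the Smad6-led cluster, 8.16% of the 539, had far higher levels of BMP targets than the rest of aKO. Its leading genes were Smad6, Id2, Id1, Id3 and Moxd1. Id1 stood at 1039 CPM (949 to 1135) in it and at 75.4 CPM (68.4 to 83.0) in the other 495 aKO members, against 1349 CPM over aWT members. Id3 stood at 1108.5 CPM (1015.5 to 1208) and 93.7 CPM (85.9 to 102). Smad6 stood at 1448 CPM (1341 to 1560.4) and 62.5 CPM (56.2 to 69.5), and its level over all aWT members was 359 CPM. Tmem100, in contrast, was at 360 CPM, against 709.7 CPM over aWT members. Bmpr2 was at 1363 CPM (1260 to 1472) and 645 CPM (624 to 667), and Eng at 1439 CPM (1333 to 1552) and 544 CPM (524 to 563). Against the other aKO members, 133 of 4490 genes (2.96%) were at least 2-fold higher and 140 (3.12%) at least 2-fold lower in this cluster.

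Other venous genes differed between these cells and the rest of aKO. Slc6a2 stood at 1429 CPM (1323 to 1541) in the Smad6-led cluster and 382 CPM (366 to 398) in the others. Hpgd stood at 1685 and 664 CPM, and Cyp1a1 at 106 CPM (78.7 to 139.7) and 14.5 CPM (11.5 to 18.04). Col8a1, Npnt and Ccl2 had 0 UMIs, which allows up to 6.36 CPM (3 counts of the cluster's total). They stood at 88.4, 64.5 and 34.8 CPM in the other aKO members. Ifi27l2b was at 8.48 CPM (2.31 to 21.7) against 232 CPM (219 to 245).

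Some genes of these cells stood with aKO and not with aWT. Cd74 was at 17.0 CPM, and Arsj at 434.5 CPM, against 24.0 CPM over aWT members. Eln, at 2711 CPM (2564 to 2864), stood above both, with 1269 CPM in the other aKO members and at most 887 CPM in an aWT cluster. The response list had a median log2 ratio to aWT members of 0.10 in this cluster, with 1 of 17 genes lower. In the other aKO members its median was -1.08, with 12 lower. Id1, Id2, Id3, Smad6 and Smad7 of this list were among the cluster's leading genes. The contrast is therefore a description and no separate support. For MHC class II the medians were -1.82 and -1.73, with all 6 genes lower in both. For interferon response genes the medians were -0.62 in the cluster and -0.11 in the other aKO members. Of 25 genes, 15 and 4 were lower. Past 2-fold, 169 of 4470 genes with at least 50 CPM were lower in the cluster than in aWT members. In the other aKO members 177 of 4473 were. The share of all genes past 1.5-fold was not counted for these sets. Genes of low level rest on few UMIs in 44 cells, and the difference was not tested. The Smad6-led cells had the sex-linked pattern of the aKO library, with Xist at 786 CPM and no Ddx3y UMI. None shared a barcode sequence with the aWT library, and Scrublet called none as a doublet. Their tdTomato level was 50.9 CPM, against 65.6 to 87.8 CPM in the other aKO clusters and 92.5 to 143 CPM in those of aWT. No counting interval was made for tdTomato in the clusters. Whether its lower level in the Smad6-led cells lies beyond counting error was therefore not tested.

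The share of such cells was also read from single cells. UMIs of Id1, Id2, Id3, Smad6 and Smad7 were summed per 10000 UMIs of the cell. These genes were among the leading genes of the Smad6-led cluster, so its high values are a description and no separate support. The median was 29.9 in aWT members (5th percentile 10.2), 2.29 in aKO members, 48.9 in the Smad6-led cluster and 2.02 in the other aKO members. At or above the 5th percentile of aWT lay 57 of 539 aKO members, 10.6% (8.11 to 13.5%), of which 42 were in the Smad6-led cluster. At or above the aWT median lay 42 of the 539, with 36 from that cluster. A class cut from such a score is a range: 21 aKO members lay near the lower limit. With the same limit, 5.27% (4.64 to 5.97%) of general capillary, 8.21% (6.66 to 9.98%) of aerocyte and 7.69% (6.31 to 9.26%) of arterial barcodes of aKO lay at or above it. The median depth was 10096 UMIs in the venous members and 4614 to 7827 in these classes. At or above the aWT venous median lay 43 of 4496, 18 of 1109 and 31 of 1326. Lymphatic barcodes were at 15.8% in aKO and 13.1% in aWT.

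**Figure D5:**
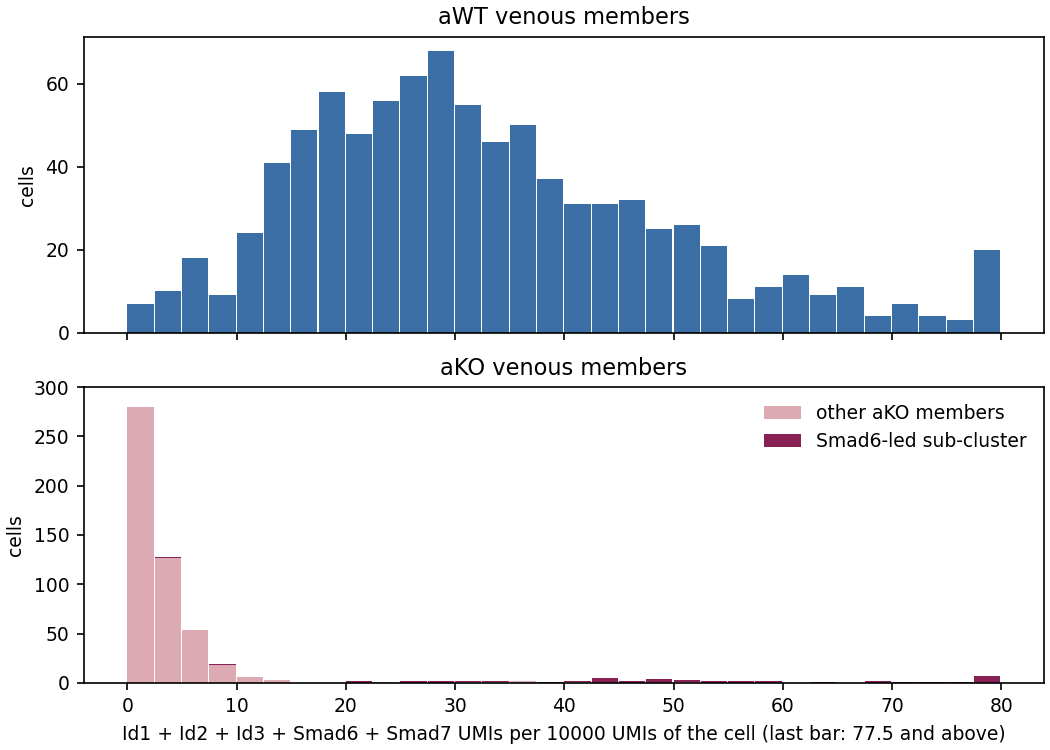
Number of venous members (vertical axis) by the summed UMIs of Id1, Id2, Id3, Smad6 and Smad7 per 10000 UMIs of the cell (horizontal axis, bins of 2.5, the last bar holding all higher values), for aWT (top) and aKO (bottom, Smad6-led sub-cluster in dark red). The aWT members spread around a median of 29.9, and most aKO members lie below 10.2, with the 44 Smad6-led cells spread from 4.75 to 114.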

How the data were processed

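Per the labels' protocols, lungs were dissociated with Dispase and DNase, tdTomato-positive cells were sorted, and libraries followed the 10x Genomics 3′ v3 chemistry. The deposited matrices give UMI counts, as whole numbers, for each gene in each barcode. The authors made them with Cell Ranger 7.2.0 on mm10, per the submitters' processing notes. Whether intronic reads were counted is not given in the sources used here.

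Counts of the members of each library were summed and scaled to CPM, with exact Poisson intervals, and shares have exact Clopper-Pearson intervals, all at 95%. Ratios are log2 of CPM + 5. With 1 library per group no test was made. Counts by size used 50 CPM in 1 library and 2-fold, and lists 5 CPM and 1.5-fold. The 4 other classes were cut by the same kind of sums. Sub-clusters came from scanpy 1.11.5 and leidenalg 0.10.2 (10000 counts per cell, log, 2000 variable genes, 30 components, 15 neighbours, resolution 0.5), run per library. Scrublet, at an expected rate of 6%, called 3.30% of aWT and 3.24% of aKO barcodes, and calls were kept except in an alternative. The counting by size was checked on simulated data with counting error only and known changes past the 2-fold limit. That check does not cover the spread between animals, cells or libraries. Python 3.11.15, numpy 2.4.6, scipy 1.17.1, R 4.3.3 and edgeR 4.0.16 (TMM factors only) were used. Gene positions are from GENCODE on mm10 and were found for 203 of 204 genes looked up. For the 38 symbols with more than 1 identifier the one with the larger count was used.

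The members and lists were chosen with earlier results of these data known, so no list is independent evidence. Genes named were the 6 markers of the label, Acvrl1, Eng and Bmpr2, the 12 highest and 12 lowest ratios (without mitochondrial, ribosomal, haemoglobin, immunoglobulin, sex-linked and rule genes), up to 4 per list by size of ratio with at least 20 CPM, the 15 genes most above the other classes, the 5 leading genes of each sub-cluster, and markers of other cells. Some genes that the rule takes in are not reported here. Further genes of those lists and sub-clusters were named after their values were seen, to show list members that lay within 1.5-fold or to follow a gene across sub-clusters. Alternatives changed the rule's limits, the cell filter, doublets, depth, weighting, scaling, pseudocount and minimum CPM. Leaving out epithelial-type members or Smad6-led cells, and another resolution, were chosen once values were known.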

Additional observations from a re-analysis of the deposited data

Results flagged for a closer look

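In venous members a pair of named genes were at least 2-fold higher in aKO than in aWT and at least 2-fold lower in aKO in another class, and the difference between the classes was not tested. Npnt, the integrin ligand nephronectin, had a log2 ratio of 1.93 in these members (aWT first, 12.3 and 60.7 CPM) and of -1.09 in lymphatic barcodes (233 and 106 CPM). In venous members without the epithelial-type barcodes the Npnt levels were 3.07 and 59.5 CPM. In members with no general capillary UMI the direction turned, to a log2 ratio of -0.65. Tagln, an actin-binding protein of contractile cells, had a log2 ratio of 2.23 in venous members (5.80 and 45.8 CPM) and of -1.41 in arterial barcodes (55.2 and 17.7 CPM).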

How the results depend on the processing

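No paired analysis was possible because each group is 1 library. The counts of 186 genes higher and 170 lower in aKO lay within 1.5 times under the other alternatives run, but members with no general capillary UMI gave 341 higher, and a minimum of 20 CPM gave 285 higher and 272 lower. Lists with a median at least 1.5-fold higher numbered 6, and 10 both without general capillary UMIs and without the epithelial-type members. The share of members was 2.24% in aWT and 1.79% in aKO with a venous share of at least 80%, 1.22% and 2.00% with no general capillary UMI, and 4.455% in aKO (6.05% in aWT) after thinning all barcodes to 2000 UMIs, which left out 2349 and 1448 barcodes. Each of these shares follows the rule genes, whose levels differed between the libraries. The class comparison gave 27 genes at 4-fold. Resolution 1 returned the same 44 Smad6-led cells, and without them the log2 ratio of Id1 was -4.07 and that of Id3 -3.39.

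Directions reversed for genes that the epithelial-type members carry. With a venous share of 80%, with no general capillary UMI, without the epithelial-type members, and without these and the Smad6-led cells, the fibroblast list's median (-0.82) became 1.10, 1.06, 0.88 and 0.94, Clec3b (-1.84) became 0.41, 0.38, 0.29 and 0.30, and Dcn (-1.26) became 0.00052, 0.22, 0.56 and 0.63. Gsn (-3.42) became 0.22 under both of the last settings. Scgb3a1 (-6.47) became 0.0013 with a venous share of 80%, and Npnt (1.93) became -0.65 with no general capillary UMI, where the cause was not tested. Over all pairs of a list and a setting, 331 medians stayed within a fixed limit and 116 moved. Over pairs of a gene and a setting, 1286 ratios stayed within counting error and 473 moved. A sign change was called a reversal only for a main median of at least 1.5-fold or a main gene ratio of at least 2-fold. Smaller values that changed sign were counted as moved, or as unchanged where they lay within the limit. Medians that changed sign and were counted as moved were found in the pan-endothelial, lymphatic, chemokine, Notch, shear stress, interferon and cardiomyocyte lists. Depth limits genes near 5 CPM, and the sex of the animals, the number of animals and the spread between libraries cannot be told apart from the groups.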
